A study of Mus musculus with 7 samples.

Results

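The 9 genes Tbx3, Isl1, Otp, Bsx, Nhlh2, Nkx2-1, Lhx9, Prdm12 and Dlx1 encode transcription factors that give neurons of the hypothalamus their identity. They were chosen by name, and their probes were taken by the gene symbol of the platform annotation. That annotation gave 12 probes for 8 of the 9 genes and none for Prdm12, among 25697 probes for 16593 named genes on the array. Tests were run on probes with a detection p below 0.05 on 3 or more of the 7 arrays. That filter kept 8 of the 12 probes and 6 of the genes, out of 14067 probes and 9720 named genes kept in all.

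The arrays measured total RNA of the arcuate nucleus, a nucleus at the base of the hypothalamus with neurons that promote (Npy, Agrp) or curb (Pomc) feeding, in male C57BL/6J mice of 40 weeks. Both groups were fed for 30 weeks, from an age of 8 to 10 weeks, on a high-fat diet in which fat gave 45% of the energy. One group was Dusp8-deficient (arrays ko_108, ko_125, ko_148 and ko_168) and the other held littermate controls (wt_136, wt_145 and wt_177), with 1 Illumina bead array per animal. The sources used here do not give how the Dusp8 allele was altered or in which cells. The arrays detected 12295 to 13976 probes each, with a mean signal that ran from 58.0 units in ko_108 and 60.6 in wt_177 to 74.9 in ko_148. The deposited signal of Dusp8, a phosphatase of Jnk and related kinases, lay between 77 and 104 units in Dusp8-deficient mice and between 540 and 624 in controls. It was the 1 probe of the 14067 that passed the test (limma, adjusted p = 0.00963).

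Each of these factors acts early in the making of hypothalamic neurons, and several stay on in the adult. Nkx2-1 is a homeodomain protein that sets up the ventral hypothalamus. Isl1, a LIM homeodomain protein, switches on Pomc in the mouse embryo, and Tbx3, a T-box protein, keeps the peptide identity of Pomc and Agrp neurons and is also made in tanycytes, the glia of the third ventricle floor. Bsx is a homeodomain protein needed for Npy and Agrp, and Otp is one needed for Sst, Trh, Avp and Oxt neurons. Nhlh2 is a basic helix-loop-helix protein that acts on Pcsk1 and Mc4r, Lhx9 serves the Hcrt neurons of the lateral hypothalamus, Dlx1 acts in GABA neurons, and Prdm12 acts in Pomc neurons.

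No member passed the test between the groups. Of the 6 tested members, 4 read lower and 2 higher in the Dusp8-deficient arrays, where 50.3% of all tested probes read lower. Lhx9, among the higher, passed the detection filter only through Dusp8-deficient arrays, so its direction is no support for a difference. After Benjamini-Hochberg adjustment 0 passed, beside 0.00711% of all tested probes, and 0 had an unadjusted p below 0.05, beside 4.81%. Nkx2-1, Dlx1 and a dimmer probe of Tbx3 fell below 0.05 under some alternatives. The groups did not overlap for 0 of the 6 and for 5.57% of all tested probes (2.79% lower and 2.78% higher in Dusp8-deficient arrays). The adjusted p was 0.996 for each of the 6 (limma, 4 against 3 arrays), and their median log2 fold change was -0.26, beside -0.0019 over all tested probes. With array ko_108 left out, 5 of them were still tested and their median was 0.0057. Array ko_108 held the lowest value of 4 of the 6, and of 20.3% of all tested probes.

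Nkx2-1 had the smallest p of the 6. Its deposited signal was 121 units in ko_108, 326 in ko_125, 373 in ko_148 and 282 in ko_168, against 341 in wt_136, 511 in wt_145 and 343 in wt_177. Array ko_108 lay far below every other array, and the groups overlapped through ko_148 alone. On the normalised log2 scale the level was 8.06 ± 0.51 (SD, n = 4) in Dusp8-deficient mice and 8.72 ± 0.33 (SD, n = 3) in controls. This gave a log2 fold change of -0.67 (SE 0.30, 95% interval -1.34 to 0.0054, limma unadjusted p = 0.0515, adjusted p = 0.996). Its exact permutation p was 0.114, two-sided, and 35 ways to split 7 arrays can give no p below 0.0286. Without ko_108 the log2 fold change was -0.42 (SE 0.24). A second probe of Nkx2-1, ILMN_2620250, was not detected on any array, with signals from -2 to 6 units.

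Tbx3 was read by 3 probes that did not show the same pattern. The brightest, ILMN_1247220, gave 35, 180, 183 and 117 units in ko_108, ko_125, ko_148 and ko_168, and 224, 172 and 87 in wt_136, wt_145 and wt_177. Its log2 fold change was -0.46 (SE 0.42, 95% interval -1.40 to 0.48), and -0.071 (SE 0.29) without ko_108. The second probe, ILMN_3139514, gave -3, 121, 62 and 7 units in the same Dusp8-deficient arrays and 133, 87 and 54 in the controls. It was thus not detected in ko_108 and stood close to background in ko_168, an array in which the brightest probe read 117 units. This probe's log2 fold change was -1.25 (SE 0.59, 95% interval -2.57 to 0.074, unadjusted p = 0.0617), and -0.83 (SE 0.53) without ko_108. The third, ILMN_3061990, rose above background in 3 arrays (ko_125, ko_148 and wt_177) and read -0.018 (SE 0.21). The part of the transcript that each probe reads is not known here.

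Isl1 and Nhlh2 were likewise lowest in ko_108, and on the normalised scale their other Dusp8-deficient arrays lay among the controls. The Isl1 signal was 76 units in ko_108 and 228, 183 and 175 in ko_125, ko_148 and ko_168, with 136, 209 and 167 in wt_136, wt_145 and wt_177. The log2 fold change of Isl1 was -0.18 (SE 0.29, 95% interval -0.83 to 0.47), and it became 0.054 (SE 0.24) without ko_108. The Nhlh2 signal was 16 units in ko_108 and 110, 86 and 56 in ko_125, ko_148 and ko_168, with 55, 133 and 52 in the controls. Its log2 fold change was -0.35 (SE 0.42, 95% interval -1.28 to 0.58). That value rested on 2 arrays, as it was 0.0057 (SE 0.33) without ko_108 and 0.0067 (SE 0.43) without the control wt_145, its highest array.

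**Figure D1:**
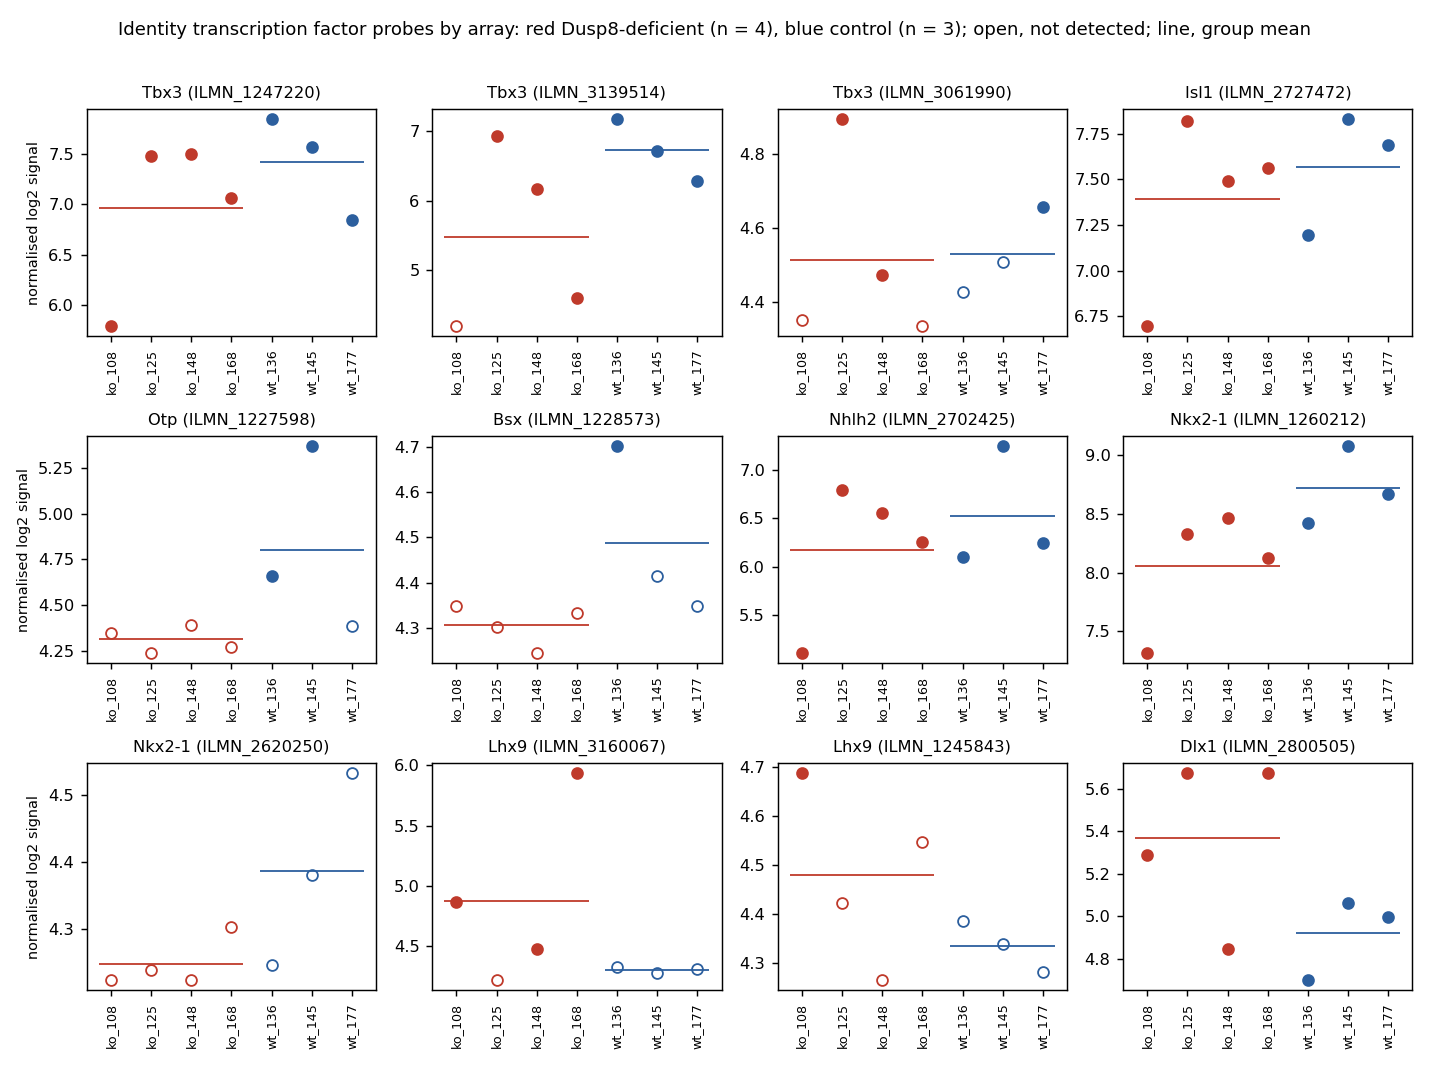
Normalised log2 signal (vertical axes, each with its own range) of the 12 probes in each of the 7 arrays (horizontal axes), with Dusp8-deficient arrays in red, controls in blue, open points where the probe was not detected and lines at the group means. Array ko_108 is the lowest point for the brightest probes of Tbx3, Isl1, Nhlh2 and Nkx2-1, and Otp and Bsx are detected only in controls.

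Because Nkx2-1, Isl1 and Nhlh2 moved together in ko_108, their promoters are shown here, from 250 bases before to 50 bases after the gene start. RefSeq promoters of build GRCm38.p6 were matched for 8 of the 9 members, all but Tbx3. Nkx2-1 is at chr12:56536859-56537158 on the minus strand, Isl1 at chr13:116309639-116309938 on the minus strand and Nhlh2 at chr3:102009895-102010194 on the plus strand. Capitals mark matches, on either strand, to GGGCGG (the GC box), CCAAT and CAGCTG (an E-box that basic helix-loop-helix proteins can bind), and these matches do not overlap.
Nkx2-1: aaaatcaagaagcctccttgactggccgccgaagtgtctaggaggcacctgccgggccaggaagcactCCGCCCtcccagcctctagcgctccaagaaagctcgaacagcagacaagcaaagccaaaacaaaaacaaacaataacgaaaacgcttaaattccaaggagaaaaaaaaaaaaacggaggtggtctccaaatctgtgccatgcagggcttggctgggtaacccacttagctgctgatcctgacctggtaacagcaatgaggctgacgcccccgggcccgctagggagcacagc
Isl1: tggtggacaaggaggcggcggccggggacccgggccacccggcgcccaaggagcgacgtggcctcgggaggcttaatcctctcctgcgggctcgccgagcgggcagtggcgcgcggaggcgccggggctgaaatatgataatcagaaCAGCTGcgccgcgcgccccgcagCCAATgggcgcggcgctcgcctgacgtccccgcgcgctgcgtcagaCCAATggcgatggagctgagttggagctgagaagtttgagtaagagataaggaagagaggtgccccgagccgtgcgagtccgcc
Nhlh2: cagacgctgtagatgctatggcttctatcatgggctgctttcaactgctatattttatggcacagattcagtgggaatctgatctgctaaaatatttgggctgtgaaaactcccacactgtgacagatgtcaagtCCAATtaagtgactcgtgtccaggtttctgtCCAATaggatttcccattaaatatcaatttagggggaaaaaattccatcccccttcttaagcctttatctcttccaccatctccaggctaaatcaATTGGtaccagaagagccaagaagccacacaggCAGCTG
None of the 6 motifs searched was shared by all 3 promoters. CCAAT matched 2 times in Isl1 and 3 times in Nhlh2, and is held by 37.4% of all 32851 promoters. CAGCTG matched 1 time in each of these genes, with a share of 16.3% of all promoters. GGGCGG matched 1 time in Nkx2-1, with a share of 35.7%. TATAAA (13.6% of all promoters), TAATTA (5.3%, a core that many homeodomain proteins bind) and CACTTG (13.6%, a core for NK2 homeodomain proteins) were searched on both strands as well and are not in these windows. The GC content was 69.0% for Isl1, 53.7% for Nkx2-1 and 43.3% for Nhlh2, beside a median of 52.7% over all promoters.

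Dlx1 and Lhx9 were the members that read higher in Dusp8-deficient arrays, and ko_108 was not extreme for either. Dlx1 gave 20, 44, 14 and 31 units in ko_108, ko_125, ko_148 and ko_168 and 11, 17 and 14 in wt_136, wt_145 and wt_177. Arrays ko_125 and ko_168 were the high ones, and ko_148 lay among the controls. The log2 fold change was 0.45 (SE 0.25, 95% interval -0.11 to 1.01, unadjusted p = 0.102), and it was 0.48 (SE 0.28) without ko_108. Dlx2, the close relative that lies beside Dlx1 in the genome, did not follow it. It gave 162, 69, 78 and 63 units in the Dusp8-deficient arrays and 103, 114 and 40 in the controls, so that ko_108 was its highest array (log2 fold change 0.074, SE 0.40).

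Lhx9 was not well above background in any control. Its brighter probe gave 11, -2, 6 and 41 units in ko_108, ko_125, ko_148 and ko_168 and 2, 0 and 1 in the controls, and it was detected in 3 of the 4 Dusp8-deficient arrays. The normalised levels were 4.87 ± 0.76 (SD, n = 4) and 4.30 ± 0.03 (SD, n = 3). The fitted log2 fold change was 0.57 (SE 0.36, limma adjusted p = 0.996). Lhx9 met the filter on detection through Dusp8-deficient arrays alone, so this direction is no support for a difference. Against the lowest detected signal per array, which stood in for the undetected controls, the Dusp8-deficient mean of Lhx9 was 1.24-fold higher. This value rests on ko_168, at 5.93 on the log2 scale where the other Dusp8-deficient arrays gave 4.22 to 4.86. The lowest detected values of the controls were 4.51 to 4.60, so it does not hold without ko_168. The dimmer probe was detected in ko_108 alone, at 8 units. Without ko_108, detection fell short of 3 arrays and Lhx9 was not tested.

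Otp and Bsx went the other way in detection, and neither was tested. Otp gave 2, -1, 4 and 0 units in the Dusp8-deficient arrays, none of them detected, and 10, 25 and 3 in wt_136, wt_145 and wt_177, of which the first and second were detected. The normalised levels were 4.31 ± 0.07 (SD, n = 4) and 4.80 ± 0.51 (SD, n = 3). With the lowest detected value per array in place of the undetected Dusp8-deficient values, the control mean of Otp was 1.22-fold higher, untested. That value rests on wt_145, at 5.37 on the log2 scale. The controls wt_136 and wt_177, at 4.66 and 4.39, lay around the lowest detected values of the Dusp8-deficient arrays, 4.47 to 4.56, so it does not hold without wt_145. The measured log2 difference went from -0.49 to -0.21 without wt_145. Bsx gave 2, 2, -1 and 2 units in the Dusp8-deficient arrays and 11, 4 and 2 in the controls, and it was detected in wt_136 alone. These signals lie at the background of the array, so that neither gene's level in the Dusp8-deficient mice could be measured.

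**Figure D2:**
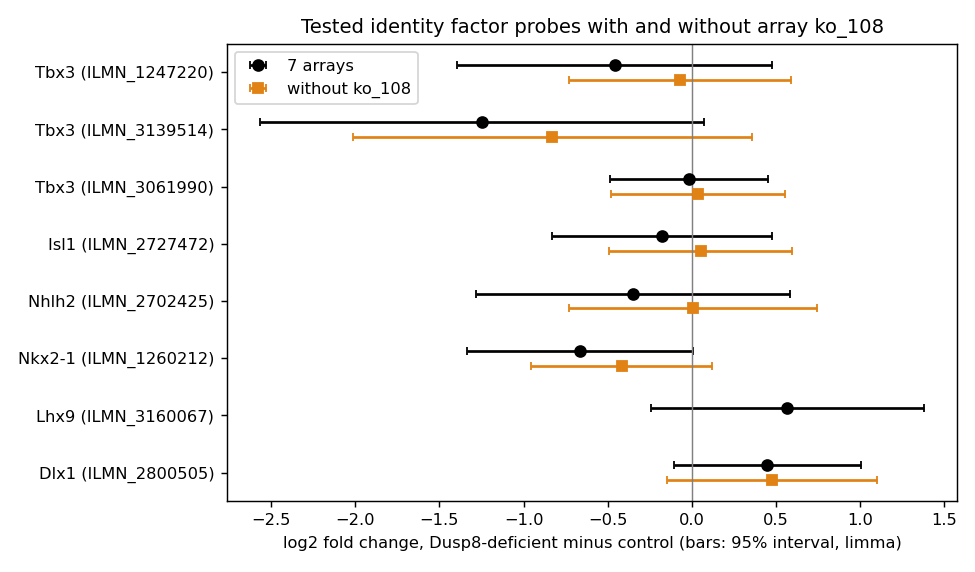
Log2 fold change (horizontal axis, Dusp8-deficient minus control) of the 8 tested probes of these factors (vertical axis), with 95% intervals from limma, over all 7 arrays in black and without ko_108 in orange. Every interval over 7 arrays includes 0, and leaving out ko_108 moves Tbx3, Isl1, Nhlh2 and Nkx2-1 upward.

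The size of the drop in ko_108 can be read against the whole array. Tbx3 (brightest probe), Nhlh2, Nkx2-1 and Isl1 lay 1.59, 1.42, 1.20 and 0.90 log2 units below the mean of the other 6 arrays. Of the tested probes, 0.448%, 0.803%, 1.55% and 3.93% lay as low or lower there, and the median probe differed by -0.039. These 4 genes are named because ko_108 was their lowest array, so the shares describe the drop and test nothing. The signal of these 4 genes in ko_108 was 19.9% to 42.5% of the median of the other arrays. Lhx9 (0.27) and Dlx1 (0.13) were above their mean in ko_108. In bulk tissue, fewer cells of a type and less RNA per cell cannot be told apart.

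Some genes of the neurons that these factors serve were also low in ko_108, and others were high there. Of 20 tested genes of the list of targets and target neurons, 6 were lowest in ko_108 and 3 highest, beside 20.3% and 18.1% of all tested probes. Ghrh, the growth hormone-releasing hormone of the arcuate nucleus, gave 5 units there and was not detected, against 265 to 439 units in the other 6 arrays. Npy gave 46 units there against 392 to 945, Cartpt 333 against 1479 to 1890, and Th, the rate-limiting enzyme of dopamine synthesis, 4 against 22 to 56. Sst, which is widespread in the brain, gave 1172 units in ko_108, within the 1091 to 1630 of the other arrays. Trh, a peptide gene of Otp-dependent neurons, was highest there, at 173 units against 5 to 60, and Gad1 and Gad2, the enzymes of GABA synthesis, were also highest there on the normalised scale. Pomc gave 5 units in ko_108, but it was also at 5 units in the control wt_145 and at 62 in wt_177, so that ko_108 did not stand apart for it. Between the groups, 14 of the 20 were lower and 6 higher in the Dusp8-deficient arrays, 0 passed, and the median log2 fold change was -0.19, or -0.13 without ko_108. The smallest p among them belonged to Npy (-1.18, SE 0.66), Oxt (-0.55, SE 0.33), Th (-0.57, SE 0.35) and Slc32a1, the vesicular GABA transporter (0.40, SE 0.26). Without ko_108 the values of Npy and Th were -0.48 (SE 0.32) and -0.24 (SE 0.24), and those of Ghrh and Cartpt went from -1.02 (SE 0.86) and -0.53 (SE 0.46) to -0.045 (SE 0.25) and -0.022 (SE 0.20). Pcsk1 (-0.17, SE 0.22) and Mc4r (0.57, SE 0.48), both known targets of Nhlh2, did not pass either. Tac2 read -0.15 (SE 0.34) and Kiss1 0.13 (SE 0.24).

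Lhx9 and the peptides of the lateral hypothalamus were present in some arrays and not in others. Hcrt, the orexin precursor, gave 96 units in ko_108 and 150 in ko_168, and it was not detected in the other 5 arrays, where it read -3 to 5 units. Lhx9 was highest in the same arrays, at 11 and 41 units. Pmch, the precursor of melanin-concentrating hormone, gave 481 units in ko_168 and 567 in the control wt_177 and -3 to 2 units elsewhere. Hcrt and Pmch were each detected in 2 arrays and were not tested. Of the lateral hypothalamus and mammillary list (7 tested genes, Lhx9 among them), 3 genes were lowest in ko_108 (Cartpt, Nts and Cdkn1c) and 1 was highest (Lmx1b). The shares over all tested probes were 20.3% and 18.1%. The list average is given next. Its mean deviation from the 7-array mean was -0.57 there and 0.49 in ko_168. The summed signal was 396 units in ko_108 against 1582 to 2103 elsewhere, and most of it was Cartpt, at 333 against 1479 to 1890. Nts, the neurotensin gene, gave 20 units in ko_108 against 39 to 141, and Cdkn1c gave 13 against 31 to 247.

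**Figure D3:**
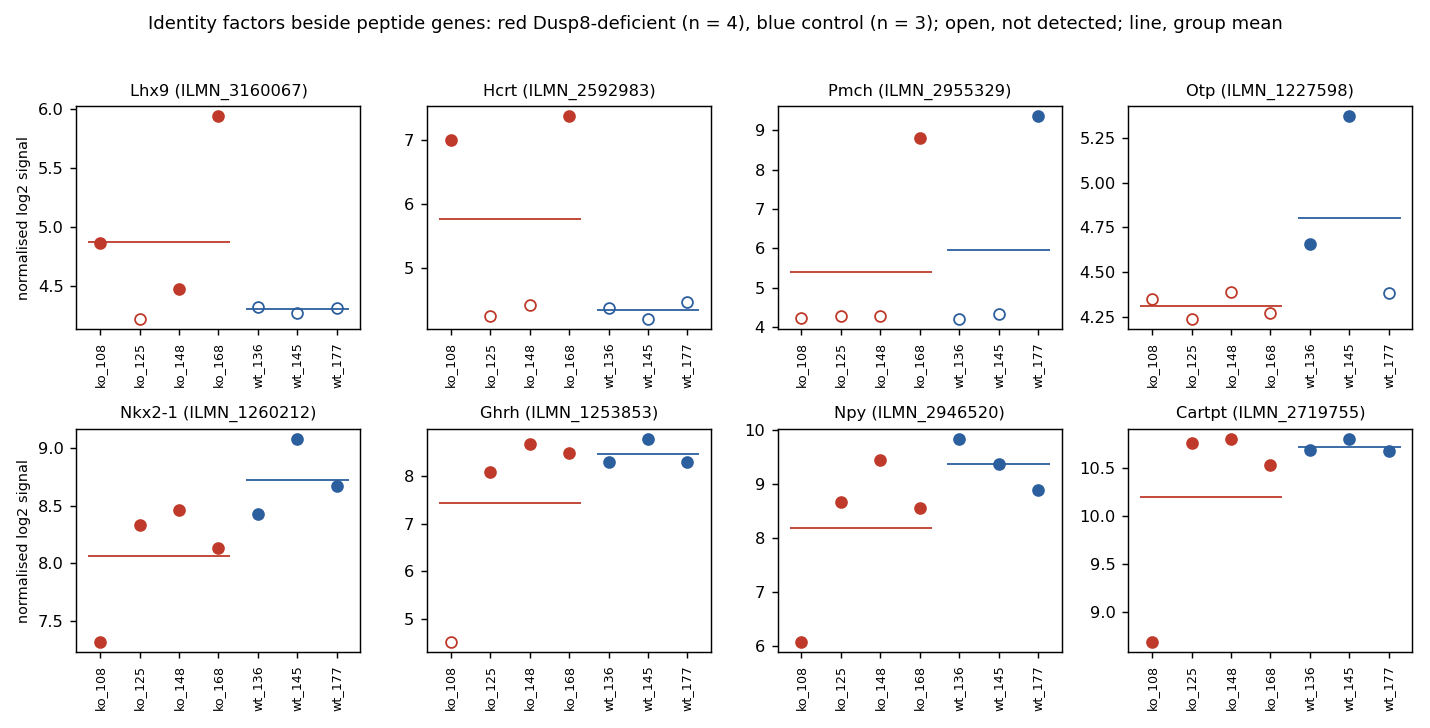
Normalised log2 signal (vertical axes, each with its own range) by array (horizontal axes) of Lhx9, Otp and Nkx2-1 beside peptide genes of the lateral hypothalamus (Hcrt, Pmch) and the arcuate nucleus (Ghrh, Npy, Cartpt), with Dusp8-deficient arrays in red, controls in blue and open points where not detected. Lhx9 and Hcrt are highest in ko_168 and ko_108, while Nkx2-1, Ghrh, Npy and Cartpt are lowest in ko_108.

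Some lists of position markers around the arcuate nucleus moved with the same array, and others hardly did. The means below are log2 deviations in ko_108 from the mean of the 7 arrays, over the tested genes of each list, and the 6 tested members stood at -0.67. The 8 tanycyte and median eminence genes stood at -0.77 and the 6 pituitary and pars tuberalis genes at -0.79, while the 7 thalamus genes stood at 0.55 and the 15 oligodendrocyte and myelin genes at 1.04. Smaller deviations were those of the ventromedial (0.24), paraventricular and supraoptic (0.15), suprachiasmatic (0.075) and cortex and striatum (0.048) lists. The thalamus genes were uneven. Against the mean of the other arrays, Zic1 lay 2.12 log2 units higher in ko_108, and Calb2, Lef1, Rora, Tcf7l2 and Lhx9 lay 0.27 to 0.70 higher. Prkcd lay 0.15 lower there. On the normalised scale all 15 myelin genes were highest in ko_108, as were 18.1% of all tested probes. Summed over the list, the myelin signal ran from 4025 to 8728 units across the Dusp8-deficient arrays and from 3559 to 5283 across the controls, and the tanycyte signal from 107 to 538 and from 343 to 517. Neuron markers common to all regions stood at 0.12 in ko_108 (20 genes). Of the 20, 1 was lowest there and 4 highest, beside 20.3% and 18.1% of all tested probes. Array ko_168 was the lowest for the paraventricular and supraoptic list (-0.69, 7 genes) and the suprachiasmatic list (-0.87, 3 genes). Avp, a gene of both lists, gave 42 units in ko_168 and 132 in wt_145, against 2480 in ko_148. The other tested suprachiasmatic genes were not low in ko_168. Zfhx3 gave 216 units there against 67 to 228 elsewhere, and Rorb 20 against 5 to 24. Of the paraventricular and supraoptic list, Oxt, Pou3f2 and Arnt2 were also lowest in ko_168 on the normalised scale, and Scgn, Sim1 and Trh were not. The part of these position markers in the values of the identity factors was not tested.

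**Figure D4:**
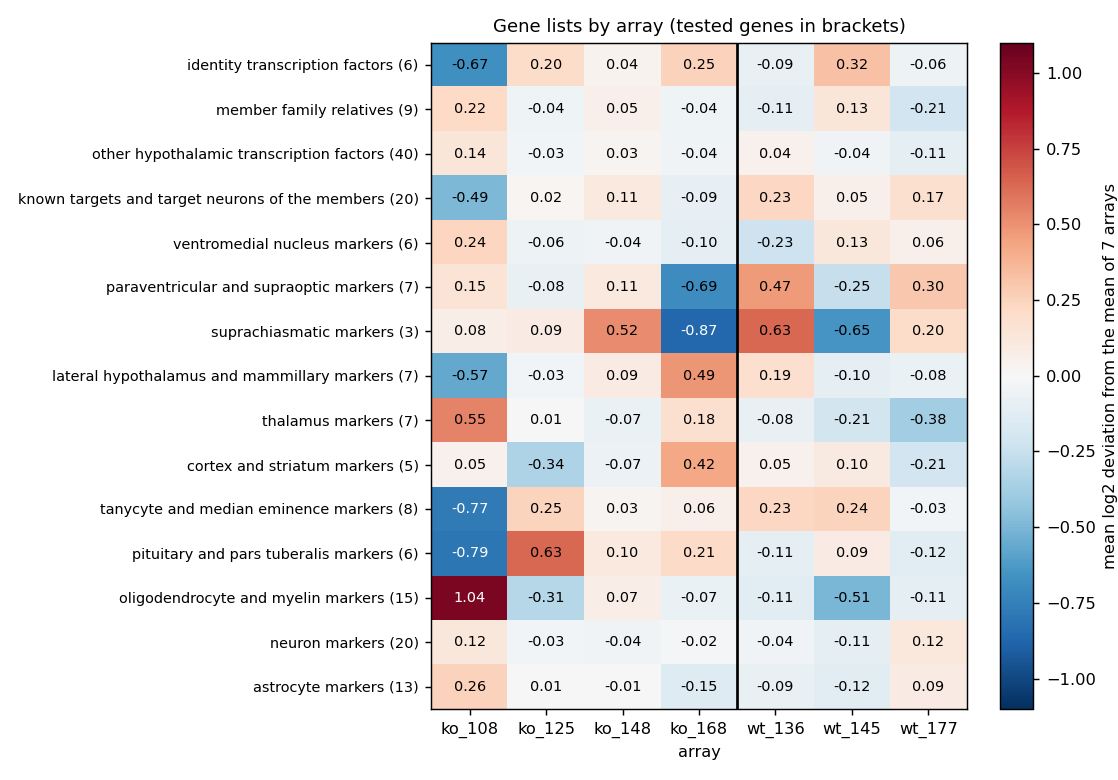
Mean log2 deviation from the mean of the 7 arrays (colour and printed value) of 15 gene lists (vertical axis, number of tested genes in brackets) in each array (horizontal axis), with the Dusp8-deficient arrays left of the black line. In ko_108 the identity factors, tanycyte and pituitary lists are at -0.67, -0.77 and -0.79 and the myelin list is at 1.04.

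Relatives of the members in the same families were mostly below detection. Of 30 such genes 27 had a probe and 9 were tested, with 2 lower, 7 higher, 0 passed and a median log2 fold change of 0.085. Without ko_108, 5 of the 9 read lower and the median was -0.024. Isl2, Tbx2, Nhlh1 and Nkx2-4, the closest relatives of 4 members, were not detected on any array. The relatives of smallest p were Lhx3 (-0.41, SE 0.19), a pituitary and motor neuron factor, Prdm16 (0.52, SE 0.26), Lhx2 (0.37, SE 0.40), which acts in tanycytes, and Nkx2-2 (0.34, SE 0.41).

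Other transcription factors of the hypothalamus were tested in 40 of 73 cases, with 14 lower, 26 higher and 0 passed, and a median log2 fold change of 0.074. As a list they stood at 0.14 in ko_108. Of the 40, 7 were lowest there and 12 highest, beside 20.3% and 18.1% of all tested probes. An unadjusted p (limma) below 0.05 was found for 6 of the 40, beside 4.81% of all tested probes. The smallest p belonged to Nr0b1, a nuclear receptor also known as Dax1 (-0.82, SE 0.23, unadjusted p = 0.00508, adjusted p = 0.996), Meis1 (0.70, SE 0.23), Zfhx4 (0.90, SE 0.31) and the estrogen receptor gene Esr1 (-0.76, SE 0.28). Nr0b1 and Esr1, like Nkx2-1, were lowest in ko_108, at 6 and 4 units against 15 to 50 and 10 to 51 elsewhere. With ko_108 left out of the same normalised values, the log2 difference was still -0.67 for Nr0b1 and -0.60 for Esr1. Zic1, a zinc finger factor of dorsal and septal brain regions, went the opposite way, with 265 units in ko_108 where ko_125, ko_148 and ko_168 gave 73 to 99 and the controls 34 to 52 (log2 fold change 1.07, SE 0.43, unadjusted p = 0.0335). Vax1 at 68 units against 1 to 12, and Zic2 at 57 against -8 to 8, were likewise high in ko_108 and were chosen after their values were seen.

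No gene of the position lists passed either. The ventromedial list (6 tested, median 0.18, and -0.029 without ko_108) was led by Fezf2 (-0.92, SE 0.34) and Cnr1 (0.34, SE 0.25), and Nr5a1, the factor that defines that nucleus, was not detected on any array. Of the paraventricular and supraoptic list (7 tested, 6 lower, median -0.23, and -0.45 without ko_108), Scgn read -0.45 (SE 0.33), and of the suprachiasmatic list (3 tested, median -0.27) Zfhx3 read 0.50 (SE 0.30). The lateral hypothalamus and mammillary list had 7 tested genes with a median of 0.0044 and the cortex and striatum list 5 with a median of -0.14, led by Bcl11b (0.75, SE 0.36). All 7 tested thalamus genes, Lhx9 among them, read higher (median 0.29, and 0.16 over the 5 still tested without ko_108). Lhx9 and Lef1 were detected in no control, so the filter kept them only because they were high in Dusp8-deficient arrays, and the count of 7 is no support for a direction. The tanycyte list had a median of -0.35, which was 0.029 without ko_108, with Vcan at -0.58 (SE 0.21), Crym at -0.55 (SE 0.28) and Fgf10 at -0.89 (SE 0.46). The pituitary list (6 tested, median -0.14) was led by Tshb, the thyrotropin subunit gene, with -5, 83, 39 and 135 units in ko_108, ko_125, ko_148 and ko_168 and 2 to 7, not detected, in the controls. Tshb too passed the filter only through the Dusp8-deficient arrays, and its place in the list rests on that. Of the myelin list (15 tested, 14 higher, median 0.42, and 0.18 without ko_108), Gpr37 read 0.65 (SE 0.23). Neuron markers (20 tested, median 0.034, led by Celf4 at 0.58, SE 0.25) and astrocyte markers (13 tested, median 0.028, led by Ppp1r3c at 0.52, SE 0.18) centred near 0.

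The genes whose profile over the 7 arrays lay nearest to each factor were picked by the root mean square difference of the centred log2 values, among 9719 genes. Nearest to Tbx3 were Daw1, Gpc3 and Dgkk, at 0.18, 0.19 and 0.19 log2 units. Nearest to Isl1 were Ube2t, Vps33b and Mns1 (0.13, 0.13 and 0.14), and nearest to Nhlh2 were Gpc4, Exoc4 and Slc1a4 (0.18, 0.20 and 0.23). Nkx2-1 lay nearest to Kdm5b, Osbpl6 and Sorbs2 (0.16 each). These likenesses include ko_108, the lowest array of all 4 factors. Lhx9 lay nearest to Tmem97, Ntn5 and Ostn (0.12, 0.14 and 0.18). The median gene lay 0.47 to 0.69 units away.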

How the data were processed

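Arcuate nucleus RNA of 7 mice was amplified, biotin-labelled and hybridised to a bead array, per the labels' protocols. Per the file headers, the authors deposited these intensities unnormalised, with a detection p-value for every probe on every array. Some intensities lie below 0, which shows that background had been subtracted already. The columns carry the genotype and a number but no replicate number of the labels, so each array was 1 member of its group. Processed intensities that the authors deposited in a second table, with a constant that stays unknown, served as an alternative. The sources used here name neither background method nor software.

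The function neqc (limma 3.58.1, R 4.3.3) corrected the background from the detection p-values with an offset of 16, quantile-normalised the arrays and took log2. Probes were fitted with lmFit and eBayes, two-sided, and p was adjusted by Benjamini-Hochberg over the 14067 tested probes, at a threshold of 0.05. Of 25697 probes, 23978 had 1 gene in the platform annotation and none had several, and 1719 were unnamed here. Against the RefSeq gene table, 16 Entrez IDs had no match and symbols stayed as they were. The brightest tested probe stood for a gene, and other probes of the named factors are given. Where a probe was not detected on any array of a group, its fold used the higher of its own value and the lowest detected value per array.

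The members, the 15 gene lists and the tests were chosen with earlier results of these data known. The lists are the 9 factors, their relatives, other hypothalamic transcription factors, target neurons, and markers of neighbouring tissue and cell types. The genes named were, by a rule, all members, Dusp8, up to 4 genes of smallest p per list, their close relatives, peptide genes of their neurons and the 3 nearest profiles of each tested member whose values span over 1 log2 unit. The few others say so or show a pattern of 1 array and were chosen after their values were seen, as were the list values without ko_108. The fit was tested on simulated data. Alternatives changed the background, normalisation, filter, variance model, array weights, source table, probe choice and replicate block, or left out each array. The number of arrays limits the precision.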

Additional observations from a re-analysis of the deposited data

Results flagged for a closer look

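Among the 4 Dusp8-deficient arrays, Dixon's criterion was used to find a lone array at a distance from the rest. Of 41 values examined 5 met it, where chance gives about 1 in 20, or 2.05, and all 5 lay in ko_108. No probe of the identity factors was among them. The normalised log2 level in ko_108 was 4.51 for Ghrh, where ko_125, ko_148 and ko_168 gave 8.10 to 8.69. Both Cartpt probes were low there, at 8.68 against 10.5 to 10.8 and at 7.47 against 9.60 to 9.94. Dlx2, the relative of Dlx1, was at 7.72 against 6.19 to 6.44. The mean deviation of the 20 neuron markers was 0.12 against -0.041 to -0.025, and the control wt_177 also stood at 0.12. The 3 controls were too few to examine.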

How the results depend on the processing

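Under 18 alternatives 0 members passed. The direction of Tbx3 (brightest probe), Nkx2-1, Lhx9 and Dlx1 stayed the same in each alternative that gave a value. Lhx9 had a value in 14, and was not tested without ko_108, ko_148 or ko_168 or when detection on all arrays was required. Lhx9 passed the detection filter only through Dusp8-deficient arrays, so its unchanged direction is no support for a difference. With 1 array left out the log2 fold change ran from -0.75 to -0.071 for Tbx3, -0.36 to 0.054 for Isl1, -0.56 to 0.0067 for Nhlh2, -0.81 to -0.42 for Nkx2-1, 0.56 to 0.76 for Lhx9 and 0.34 to 0.61 for Dlx1. Isl1 changed direction without ko_108 (0.054), and Nhlh2 without ko_108 (0.0057) or without wt_145 (0.0067). These changes come with fewer samples. Array weights gave -0.020 for Isl1 and -0.13 for Nhlh2. An offset of 50 gave -0.23 for Nhlh2, 0.27 for Lhx9, 0.24 for Dlx1 and -0.22 for Otp, and replicates 1 to 3 of the authors' processed values gave 0.29 for Lhx9. The cause was not tested. The unadjusted p (limma) of Nkx2-1 fell below 0.05 with an offset of 50 (0.0436), with trend and robust variance (0.0273), with the replicate block (0.0435) and without ko_125, ko_148 or wt_136 (0.0476, 0.0332 and 0.0447), and that of Dlx1 without ko_148 (0.0286). For Nkx2-1 it was above 0.05 in all other alternatives, among them array weights (0.114), without ko_108 (0.114) and without wt_145 (0.184). With the mean of its 3 tested probes, Tbx3 read -0.57.

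The untested difference of Bsx, -0.18, was -0.32 without further background correction, -0.35 with the authors' processed values and -0.38 with their replicates 1 to 3, with or without the replicate block. With 1 array left out it ran from -0.26 to -0.072, and that of Otp from -0.71 to -0.21.

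The count of 1 probe past the threshold, Dusp8, fell to 0 without the filter on dim probes, where Dusp8 read -2.52 (limma, adjusted p = 0.141). It was also 0 with replicates 1 to 3 of the processed values, where Dusp8 read -2.60 (adjusted p = 0.273 with the replicate block and 0.0899 unblocked), and between 0 and 1 with 1 array left out, where Dusp8 ran from -2.65 to -2.40. Without ko_148, ko_168, wt_136, wt_145 or wt_177 the count was 0. In these fits 508 to 1204 probes had an unadjusted p below 0.05. Samples with the same replicate number correlated at -0.059, 0.082 and -0.017 in their deviations, so the number was not taken as a pairing, and the block changed no call of a member. Signals of a few units limit what can be seen for Otp, Bsx and Lhx9.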
